A study of Mus musculus with 6 samples.

Results

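The genes of the proteasome, the protease that breaks down ubiquitin-tagged proteins, were examined in splenic B cells of p80HT transgenic mice and of their wild-type (WT) littermates. A gene was a member if its platform symbol was Psm followed by a letter from a to g and a number, and pseudogenes were left out. This gave 50 of the 19938 genes with a probeset (a set of probes read as 1 signal) of their own, each read at its brightest probeset. The members are 48 genes of the complex, its activators and its assembly, plus Psmc3ip and Psme3ip1, which share the start of the name but are no subunits. Psme2b had no probeset of its own and was not analysed here. The p80HT mice carry the human coding sequence of p80HT, a truncated NF-κB2 found in lymphoma, behind an H-2Kb promoter and an immunoglobulin μ enhancer, which direct it to T and B lymphocytes. The WT littermates lack it. Both groups were on the mixed C57BL/6J x SJL/J background and 1 year old, and the 3 p80HT mice had monoclonal immunoglobulin (M-protein) in their serum. B cells were taken from spleen by magnetic selection for B220, and the RNA of each mouse was run on 1 Affymetrix Mouse Gene 1.0 ST array, 3 per group.

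The proteasome is a barrel of stacked rings of α and β subunits, closed at its ends by a regulatory cap that binds ubiquitin chains, unfolds the protein and feeds it inside. In most cells Psmb5, Psmb6 and Psmb7 encode the β subunits that cut. Interferon-γ and the development of lymphocytes bring in replacements, Psmb8, Psmb9 and Psmb10, and the barrel that holds these is the immunoproteasome, which favours peptides that fit MHC class I molecules. The partial digestion of the NF-κB2 precursor to its active form is also done by the proteasome, and plasma cells, with their heavy load of secreted protein, depend on it.

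The array of p80HT replicate 3 stood apart from the others. Across genes, which are not independent replicates, it correlated with the other 5 arrays at 0.914 to 0.925, and these correlated with each other at 0.981 or above. All 9 B cell markers measured, Ms4a1, Cd79a and Pax5 among them, were bright, with mean signals at percentiles 97.0 to 99.5 of all genes. The log2 of their summed signal was 15.59 to 15.79 in WT and 13.98 to 15.40 in p80HT, the lowest being that of p80HT replicate 3, and none of the 9 passed the threshold below. Without that array 2 of the 9 were lower, Cr2 (-1.13, adjusted p = 0.0021 in limma) and Fcer2a (-0.996, adjusted p = 0.00367). For 6 genes of salivary and lacrimal glands the log2 of the summed signal was 15.13 on this array and at most 10.13 on any other. The same sum was 11.40 to 11.79 in WT and 12.40 to 14.20 in p80HT for 9 T cell genes, of which Cd3e and Cd3g rose with 6 arrays and 6 of 9 (also Cd3d, Cd247, Cd8a and Il7r) without p80HT replicate 3. It was 12.39 to 12.51 in WT and 12.91 to 14.66 in p80HT for 10 macrophage genes, of which Adgre1 and Vsig4 rose either way. Vsig4 was dim, with a mean signal at percentile 11.6 of all genes. For 8 dendritic cell genes the sum was 11.48 to 11.58 in WT and 11.69 to 12.59 in p80HT. None of these rose with 6 arrays and 1 without p80HT replicate 3 (Itgax, 0.83, adjusted p = 0.00551 in limma). With 6 arrays 6 of the 8 differences were above 0 and 2 below, Siglech (-0.44) and Ccr9 (-0.43). Both had all p80HT values below all WT values and did not pass. The sums of plasma cell genes (14.34 to 14.60 in WT and 14.37 to 14.62 in p80HT, 1 of 9 rose) lay closer together, and those of 6 erythroid genes were 10.26 to 10.36 in WT and 10.67 to 11.44 in p80HT (2 of 6 rose, and 3 without p80HT replicate 3). For 7 fibroblast genes the sums were 10.12 to 10.55 in WT and 10.39 to 13.59 in p80HT, and none rose. The 13.59 was that of p80HT replicate 3, and the sum was at most 10.55 on any other array. By the threshold below, 1.22% of all genes rose and 0.968% fell with 6 arrays. Without p80HT replicate 3 these shares were 2.01% and 1.45%. Array signals have a floor and no true zero, so no marker is at 0. In such bulk RNA, fewer cells of a type and less RNA per cell cannot be told apart. The results below are therefore given with 6 arrays and, for most genes, also without p80HT replicate 3.

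Rose and fell are used below only of genes that met the study's criterion in limma, an unadjusted p under 0.01 and a change of 1.5-fold or more. Of the 50 proteasome genes 1 rose, Psmb9, and none fell. Of all genes 1.22% rose and 0.968% fell, so 1 of 50 is near the background. After Benjamini-Hochberg adjustment over all genes none of the 50 had an adjusted p under 0.05 in limma, where 0.0502% of all genes were higher and 0.00502% lower. At an unadjusted p under 0.05 there was 1 of 50, against 10.2% of all genes. The differences of the 50 genes (p80HT minus WT, log2) ran from -0.27 for Psma3 to 0.77 for Psmb9, with a median of 0.12. The median of all genes was -0.02. Without p80HT replicate 3 none of the 50 genes passed the threshold of fold and p, where 2.01% of all genes were higher and 1.45% lower, while 8 of 50 had an unadjusted p under 0.05 in limma against 21.6% of all genes. The median of the 50 was then -0.06, and that of all genes 0.04.

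Psmb9 encodes the immunoproteasome subunit LMP2, which takes the place of the Psmb6 product. Its signal (log2) was 10.23, 10.30 and 10.22 on WT replicates 1 to 3 and 10.85, 10.80 and 11.40 on p80HT replicates 1 to 3. All 3 p80HT arrays were above all 3 WT arrays, as they were for 8.86% of all genes, and p80HT replicates 1 and 2 lay close together. The means were 11.02 ± 0.33 in p80HT against 10.25 ± 0.04 in WT (log2 signal, mean ± SD, n = 3 each). The log2 difference was 0.77 ± 0.18 (SE), a 1.70-fold rise, with an adjusted p of 0.256 in limma. When p80HT replicate 3 was left out, the difference was 0.57 with an adjusted p of 0.0122. That is 1.49-fold, just under the fold the threshold asks for, and the unadjusted p was 0.000233. The call was also lost without WT replicate 1 (0.76), 2 (0.79) or 3 (0.75), where the difference hardly moved but the unadjusted p was 0.0128 to 0.0161. The summed T cell, macrophage and dendritic cell signals were higher on the same p80HT arrays, and their part in the Psmb9 signal was not tested.

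The other immunoproteasome subunits did not pass. Psmb8, which encodes LMP7 in the place of the Psmb5 product, was at 9.88, 10.12 and 9.89 on WT replicates 1 to 3 and 10.15, 9.92 and 10.53 on p80HT replicates 1 to 3. Psmb10, which encodes MECL-1 in the place of the Psmb7 product, was at 9.35, 9.61 and 9.73 on WT replicates 1 to 3 and 9.69, 9.44 and 10.26 on p80HT replicates 1 to 3. For both the groups overlap, and p80HT replicate 3 holds the highest value. The log2 difference was 0.23 (95% interval -0.20 to 0.66) for Psmb8 and 0.23 (-0.30 to 0.76) for Psmb10, with adjusted p of 0.72 and 0.818 in limma. When p80HT replicate 3 was left out they were 0.07 (-0.21 to 0.35) and 0.00 (-0.31 to 0.31). With 6 arrays the intervals reach past 1.5-fold up, and with 5 arrays they stop short of it. Psmb9 was also set against each of them within the arrays. The log2 signal of Psmb9 minus that of Psmb8 was 0.35, 0.17 and 0.33 in WT and 0.70, 0.88 and 0.87 in p80HT, a shift of 0.53 between the groups and 0.51 without p80HT replicate 3. Psmb9 minus Psmb10 was 0.88, 0.69 and 0.49 in WT and 1.16, 1.36 and 1.15 in p80HT, a shift of 0.54, and 0.57 without that array. In both cases the groups do not overlap. The exact permutation test (two-sided, 2 comparisons) gave p = 0.1 and an adjusted p of 0.1, the smallest that 3 against 3 arrays allow. Psmb9 was taken here as the gene that rose on these same arrays, so the separation is in part set by that choice. Such a difference of probesets says nothing of which gene is the more abundant, and only its shift was compared.

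**Figure D1:**
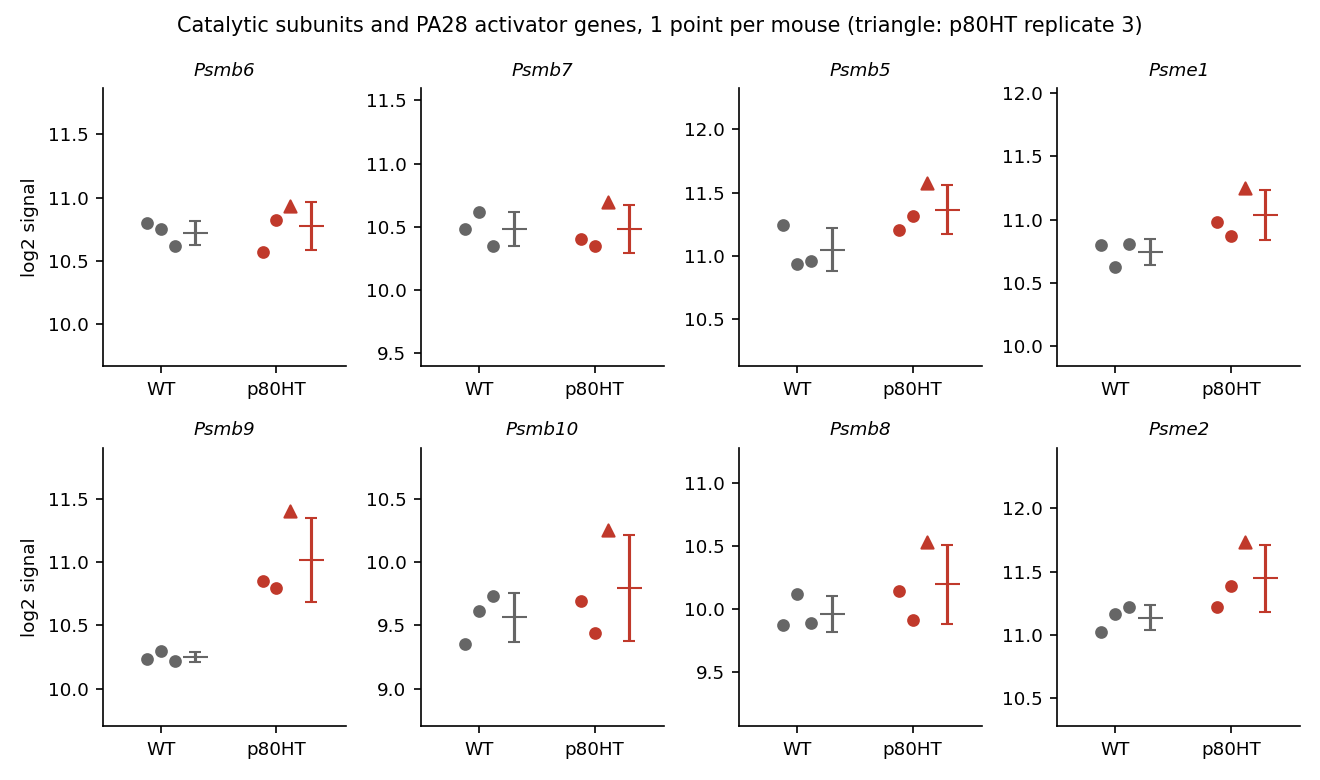
Log2 signal (vertical axes, each spanning the same range) of the constitutive catalytic subunit genes (top) above the immunoproteasome genes that replace them (bottom), with the activator genes Psme1 and Psme2 on the right. Points are mice, triangles p80HT replicate 3, bars the mean ± SD (n = 3). Psmb9 is the panel with a clear gap, its p80HT mean being 11.02 and its WT mean 10.25.

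Psmb9 lies in the MHC region of chromosome 17, where RefSeq orders it beside Tap1, Psmb8 and Tap2. Tap1 and Tap2 encode the transporter that carries the peptides made by the proteasome into the endoplasmic reticulum. Psmb9 and Tap1 are read in opposite directions from starts 225 bases apart, so the stretch between them lies upstream of both. It is shown because it joins the proteasome gene that rose to the neighbour described next. It is given on the strand of Tap1 (RefSeq, GRCm38.p6, chr17:34187331-34187555), with a CCAAT box and a GC box (GGGCGG, here on the other strand as its complement) in capitals.
Psmb9 and Tap1 promoter: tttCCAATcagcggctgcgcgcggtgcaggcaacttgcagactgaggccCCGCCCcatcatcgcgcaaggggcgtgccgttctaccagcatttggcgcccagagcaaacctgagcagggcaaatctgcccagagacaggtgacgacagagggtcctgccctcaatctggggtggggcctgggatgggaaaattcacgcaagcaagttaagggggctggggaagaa
The CCAAT box, at base 4, is next to the start of Psmb9. Of the 27025 genes with a RefSeq promoter window of 300 bases, 41.1% hold CCAAT on either strand and 38.2% hold GGGCGG. Among the 42 members with a window these were 16 and 24. No match lay between Psmb9 and Tap1 for 3 further patterns, searched on both strands. The NF-κB consensus is held by 9.55% of all genes and 6 of the 42, the interferon-stimulated response element by 3.99% and 5, and the gamma-activated site TTCNNNGAA by 9.55% and 3, Psmb8 among them. A match is a description of letters, and a missing one says only that these letters are not in this window.

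Tap1 was at 11.14, 11.29 and 11.23 on WT replicates 1 to 3 and 11.70, 11.66 and 11.85 on p80HT replicates 1 to 3. All p80HT arrays were above all WT arrays, and unlike for Psmb9 the 3 p80HT values lie close together. The difference was 0.52 ± 0.12 (log2, SE; adjusted p = 0.252 in limma), which is 1.43-fold and so does not pass the threshold. It was 0.47 without p80HT replicate 3 (adjusted p = 0.0363). Tap2, the partner chain, was at 9.59, 9.67 and 9.71 in WT and 9.85, 9.78 and 10.07 in p80HT, also without overlap, with a difference of 0.25 that did not pass (0.16 without p80HT replicate 3). Among the 9 measured genes of peptide loading none rose or fell, and their median difference was 0.18, or -0.04 without p80HT replicate 3. Tapbpl, a tapasin-related editor of the bound peptide, had a difference of 0.37 (adjusted p = 0.467 in limma), or 0.24 without p80HT replicate 3. For 3 of the 9, Tap1, Tap2 and Tapbpl, all p80HT arrays were above all WT arrays, where 8.86% of all genes were.

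Of 10 genes by which interferon controls the immunoproteasome, 1 rose, none fell and 9 did not pass, where 1.22% of all genes rose. Nlrc5, the transactivator of MHC class I genes, which also acts on Psmb9 and Tap1, was at 10.63, 10.87 and 10.92 on WT replicates 1 to 3 and 11.97, 11.75 and 11.67 on p80HT replicates 1 to 3. The groups stand well apart and p80HT replicate 3 is here the lowest of the p80HT arrays. The difference was 0.99 ± 0.14 (log2, SE; adjusted p = 0.0982 in limma) and 1.05 without p80HT replicate 3 (adjusted p = 0.00164). The call held whichever array was left out. Ifng, the gene of interferon-γ, was at 7.33, 8.04 and 8.45 in WT and 8.73, 8.32 and 9.77 in p80HT, a difference of 1.00 with overlapping groups (adjusted p = 0.483), and Irf1, the factor that carries its signal to the immunoproteasome genes, had a difference of 0.30 (adjusted p = 0.682). Neither passed, and their differences were 0.58 and 0.10 without p80HT replicate 3. Irf2, a repressor at the same sites, had its 3 p80HT values below its 3 WT values, as 11.9% of all genes did, with a difference of -0.32 that did not pass (adjusted p = 0.425). The median of the 10 was 0.13. As for Psmb9, the part of the higher T cell, macrophage and dendritic cell sums in the Tap1, Nlrc5 and Ifng signals was not tested.

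**Figure D2:**
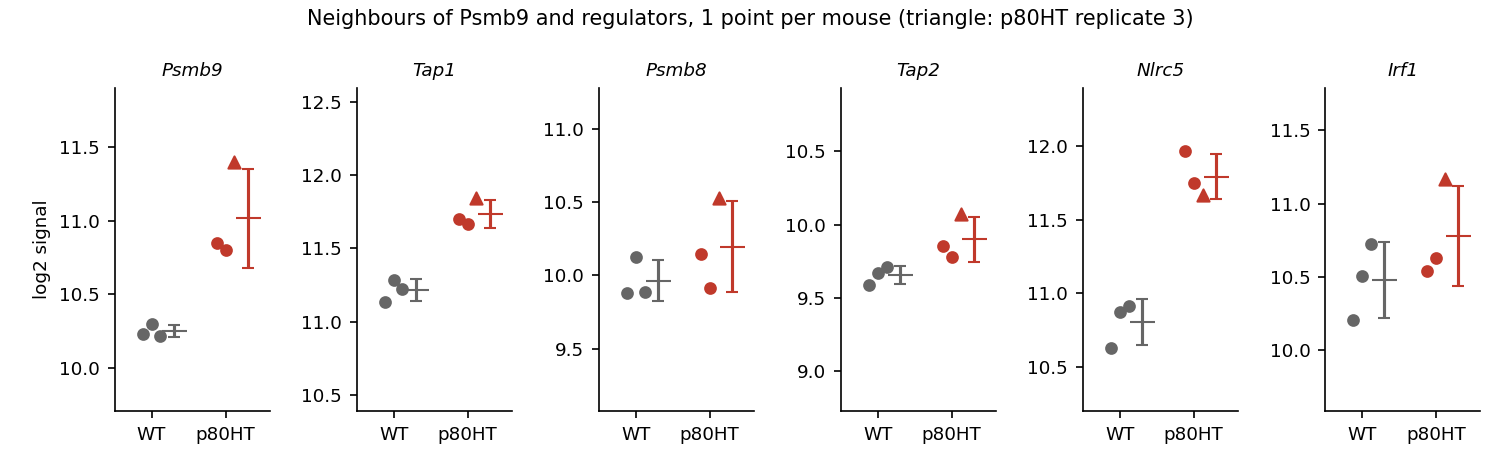
Log2 signal (vertical axes, each spanning the same range) of Psmb9, its neighbours Tap1, Psmb8 and Tap2, and the regulators Nlrc5 and Irf1. Points are mice, triangles p80HT replicate 3, bars the mean ± SD (n = 3). Psmb9, Tap1, Tap2 and Nlrc5 have all p80HT points above all WT points, and Psmb8 and Irf1 do not.

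The constitutive catalytic subunits did not pass either. Psmb6, whose product Psmb9 replaces, was at 10.80, 10.75 and 10.62 on WT replicates 1 to 3 and 10.57, 10.82 and 10.93 on p80HT replicates 1 to 3, a difference of 0.05 (95% interval -0.28 to 0.39). Psmb7 was at 10.48, 10.62 and 10.35 in WT and 10.40, 10.35 and 10.70 in p80HT, a difference under 0.01 in size (-0.35 to 0.35). Psmb5 was at 11.24, 10.94 and 10.96 in WT and 11.20, 11.32 and 11.58 in p80HT, a difference of 0.32 (-0.05 to 0.68, adjusted p = 0.542 in limma). The groups overlap for all 3 genes, and without p80HT replicate 3 the differences were -0.03, -0.11 and 0.21. The within-array difference of each replacement and its counterpart shifted by 0.71 for Psmb9 and Psmb6, by 0.23 for Psmb10 and Psmb7 and by -0.08 for Psmb8 and Psmb5 (log2, p80HT minus WT). Psmb9 minus Psmb6 was -0.57, -0.45 and -0.40 in WT and 0.28, -0.03 and 0.47 in p80HT, with no overlap of the groups. For the other pairs the groups overlap, and without p80HT replicate 3 the shifts were 0.60, 0.11 and -0.15. These shifts are given as values with no test.

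The remaining ring subunits are shared by both kinds of proteasome. Of the 7 α subunit genes, Psma1 to Psma7, which form the gate of the barrel, none rose or fell, and neither did any of the 4 non-catalytic β genes Psmb1 to Psmb4. The largest difference of these 11 was that of Psma5, at 9.10, 9.07 and 9.004 on WT replicates 1 to 3 and 9.03, 9.08 and 10.27 on p80HT replicates 1 to 3. The first 5 of these values lie within 0.10 of each other and p80HT replicate 3 stands alone above them. The difference was 0.40 ± 0.32 (SE, adjusted p = 0.731 in limma), and without that array its size was under 0.01. The dimmer Psma5 probeset was at 8.27, 8.24 and 8.19 in WT and 8.47, 8.19 and 9.16 in p80HT (0.37). There p80HT replicate 1 also lay above all WT arrays. Psma3 went the other way, at 11.60, 11.67 and 11.64 in WT and 11.47, 11.19 and 11.45 in p80HT. All its p80HT arrays lay below all WT arrays, with a difference of -0.27 (95% interval -0.57 to 0.04, adjusted p = 0.536 in limma) and -0.31 without p80HT replicate 3, neither of which passed. All 3 probesets of Psma3 gave a difference of -0.27. The other α genes had differences of 0.28 (Psma1), 0.00 (Psma2), 0.20 (Psma4), 0.31 (Psma6) and 0.21 (Psma7), with overlapping groups, and without p80HT replicate 3 their differences were -0.02, -0.17, 0.00, 0.01 and -0.09. Among the non-catalytic β genes the smallest p was that of Psmb4, at 11.67, 11.60 and 11.60 in WT and 11.67, 11.72 and 12.17 in p80HT, a difference of 0.23 ± 0.16 (SE, adjusted p = 0.677 in limma), or 0.07 without p80HT replicate 3. Psmb1, Psmb2 and Psmb3 had differences of 0.14, 0.11 and 0.15, or -0.11, -0.07 and -0.04 without p80HT replicate 3. The 14 constitutive genes of the barrel, from α ring to catalytic β subunits, had a median difference of 0.17, or -0.03 without p80HT replicate 3.

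Of the 17 members that encode subunits of the regulatory cap none rose or fell. Their differences ran from -0.22 to 0.33 with a median of 0.11, and -0.09 without p80HT replicate 3. Psmc1 to Psmc6 encode the ring of ATPases that unfolds the substrate. Psmc1 was at 9.05, 9.34 and 9.26 on WT replicates 1 to 3 and 9.40, 9.43 and 9.82 on p80HT replicates 1 to 3, all p80HT arrays being above all WT arrays, with a difference of 0.33 (95% interval -0.05 to 0.71, adjusted p = 0.542 in limma). The dimmer Psmc1 probeset was at 8.68, 8.97 and 8.88 in WT and 8.81, 8.94 and 9.74 in p80HT (0.32). There the groups overlapped. Psmc6, singled out after its values were seen, was at 9.57, 9.86 and 9.87 on WT replicates 1 to 3 and 9.26, 9.22 and 10.15 on p80HT replicates 1 to 3. Here p80HT replicates 1 and 2 are below all WT arrays and replicate 3 is above them. Its difference was -0.22, and without p80HT replicate 3 -0.53 with an adjusted p of 0.0403 in limma, a size under 1.5-fold. Besides Psmb9 it was the only proteasome gene with an adjusted p under 0.05 without that array, in a fit where 2.56% of all genes were higher and 2.11% lower. The other ATPase genes had differences of 0.07 (Psmc2), 0.02 (Psmc3), 0.11 (Psmc4) and 0.05 (Psmc5). Without p80HT replicate 3 these were -0.09, -0.06, -0.11 and -0.20, so that of the 6 ATPase genes only Psmc1 was then above 0, at 0.19.

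Another 11 members encode further subunits of the cap, which build its base and the lid that removes ubiquitin chains. Psmd2, a scaffold of the base, was at 10.92, 10.82 and 10.74 on WT replicates 1 to 3 and 10.85, 10.96 and 11.39 on p80HT replicates 1 to 3, with a difference of 0.24 ± 0.17 (SE, adjusted p = 0.676 in limma). Psmd6, of the lid, was at 9.83, 10.01 and 9.92 on WT replicates 1 to 3 and 9.84, 9.94 and 10.76 on p80HT replicates 1 to 3, with a difference of 0.27 ± 0.25 (adjusted p = 0.795). For both the groups overlap and p80HT replicate 3 is the highest array, and without it the differences were 0.08 and -0.03. Psmd14, the enzyme of the lid that cuts the chain off, was at 11.24, 11.30 and 11.35 in WT and 11.30, 11.13 and 11.84 in p80HT and did not pass (0.13, and -0.08 without p80HT replicate 3). Psmd4, a receptor for ubiquitin chains, had a difference of -0.02, and Psmd1, the larger scaffold of the base, 0.23, or -0.11 and 0.04 without p80HT replicate 3. Of the lid subunits, Psmd3 had a difference of 0.12, Psmd7, the partner of Psmd14, 0.13, Psmd8 -0.05, Psmd11 -0.08, Psmd12 0.05 and Psmd13 0.23. Without p80HT replicate 3 those of all 6 were below 0, from -0.24 for Psmd8 to -0.02 for Psmd13.

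None of the 4 measured activators, which can sit on the barrel in place of the cap, rose or fell. Psme1 and Psme2 encode the PA28 ring, which interferon-γ induces together with the immunoproteasome. Psme1 was at 10.80, 10.63 and 10.80 on WT replicates 1 to 3 and 10.98, 10.87 and 11.25 on p80HT replicates 1 to 3, without overlap, and its difference was 0.29 (95% interval -0.05 to 0.63, adjusted p = 0.549 in limma). Psme2 was at 11.03, 11.17 and 11.22 on WT replicates 1 to 3 and 11.22, 11.39 and 11.73 on p80HT replicates 1 to 3, where p80HT replicate 1 lies just within the WT range, and its difference was 0.31 (-0.08 to 0.69, adjusted p = 0.57). The differences were 0.18 and 0.17 without p80HT replicate 3. Psme3, the nuclear PA28 subunit, was at 10.50, 10.72 and 10.47 in WT and 10.60, 10.28 and 10.73 in p80HT (difference -0.03, and -0.12 without p80HT replicate 3), and Psme4, the nuclear activator PA200, at 10.52, 10.74 and 10.72 in WT and 10.44, 10.35 and 10.90 in p80HT (-0.09, and -0.26 without p80HT replicate 3). The groups overlap for both.

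Of the 8 genes that encode assembly factors or the inhibitor none rose or fell, with a median difference of 0.02, or -0.07 without p80HT replicate 3. Psmg1, a chaperone of the α ring, was at 8.75, 8.81 and 8.67 in WT and 8.84, 8.84 and 9.34 in p80HT (0.26 ± 0.17, SE, adjusted p = 0.638 in limma), all p80HT arrays being above all WT arrays, with 0.10 without p80HT replicate 3. Its partner in the same chaperone, Psmg2, was at 8.99, 9.26 and 9.05 in WT and 8.73, 8.65 and 9.47 in p80HT, with p80HT replicates 1 and 2 below WT and replicate 3 above. Psmg2 had a difference of -0.15, and -0.41 without p80HT replicate 3 (adjusted p = 0.082). Psmd9, which helps to build the base of the cap, was at 8.43, 8.48 and 8.39 in WT and 8.25, 8.32 and 8.30 in p80HT, all p80HT arrays being below WT by a small step (-0.14). The differences were -0.15 for Psmd5 and 0.26 for Psmd10, both chaperones of the base, under 0.01 in size for Psmg3 and 0.14 for Psmg4, chaperones of the α ring, and 0.04 for Psmf1, the inhibitor PI31. When p80HT replicate 3 was left out these 5 were -0.31, -0.11, 0.12, 0.07 and -0.04, none of which passed. Psma8 and Psmb11, the subunits of the testis and of the thymus cortex, were included as members but are not expected in B cells. Psma8 was at 6.24, 6.20 and 6.27 on WT replicates 1 to 3 and 6.24, 6.33 and 6.42 on p80HT replicates 1 to 3, a mean signal at percentile 15.3 of all genes, with a difference of 0.09 ± 0.12 (SE, adjusted p = 0.885 in limma). Psmb11 was at 7.63, 7.22 and 7.48 on WT replicates 1 to 3 and 7.75, 7.62 and 6.89 on p80HT replicates 1 to 3, with a difference of -0.02 ± 0.25 (adjusted p = 0.996). For both the groups overlap, and without p80HT replicate 3 the differences were 0.05 and 0.25. Psmc3ip, a partner in meiotic recombination, had a difference of 0.03 ± 0.20 (adjusted p = 0.994) and Psme3ip1, a partner of the nuclear activator, -0.12 ± 0.17 (adjusted p = 0.911), where p80HT replicate 3 was the highest of the 6 arrays for both and the differences without it were -0.15 and -0.28.

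**Figure D3:**
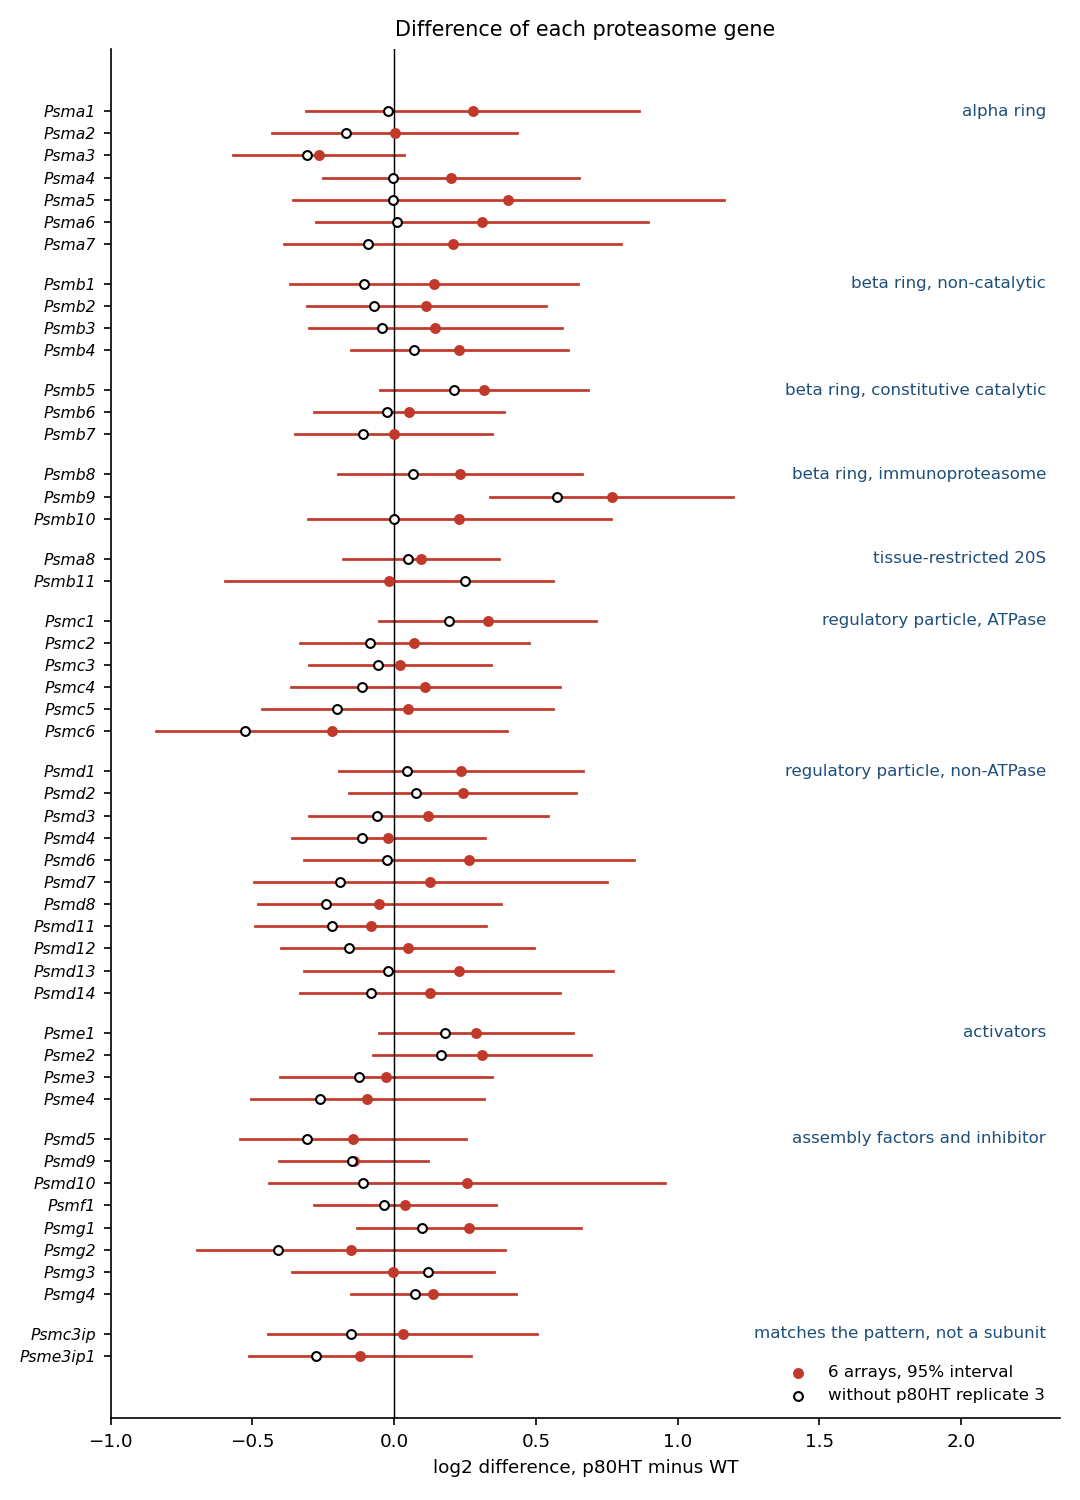
Log2 difference (horizontal axis, p80HT minus WT) of all 50 genes by group. Filled points are the limma differences over 6 arrays with 95% intervals, and open points the same differences without p80HT replicate 3. The interval of Psmb9 (0.34 to 1.20) is the only one that leaves out 0, and for 34 genes the open point lies below 0.

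The array of p80HT replicate 3 held the highest value of most proteasome genes. Of the 50 genes 46 had their highest value on p80HT replicate 3, as 27.8% of all genes did. The exceptions were Psma3, Psmb11, Psmd9 and Psmg3. For the 14 constitutive genes of the barrel the median deviation from the WT mean (log2) was -0.09 on p80HT replicate 1, within 0.01 of 0 on replicate 2 and 0.54 on replicate 3. For the 17 cap genes these were -0.12, -0.07 and 0.54. For all genes they were 0.02, 0.04 and -0.16, so that on replicate 3 the proteasome genes lay above and the median gene below its WT level. With 6 arrays 36 of the 50 differences were above 0, against 8990 of all 19938 genes. When p80HT replicate 3 was left out, 16 of the 50 were above 0, against 11230 of all genes. All 3 p80HT arrays lay above all WT arrays for 4 of the 50 genes (Psmb9, Psmc1, Psme1 and Psmg1) and below them for 2 (Psma3 and Psmd9), where 8.86% and 11.9% of all genes did. For Psmc1 this held on its brightest probeset and not on the other. On p80HT replicates 1 and 2 alone, 5 of the 50 genes were above all WT arrays, where 19.7% of all genes were, and 14 were below, where 20.5% were. The array of p80HT replicate 3 also held the gland transcripts and the highest T cell, macrophage, dendritic cell and fibroblast sums given above. Their part in its proteasome values was not tested.

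**Figure D4:**
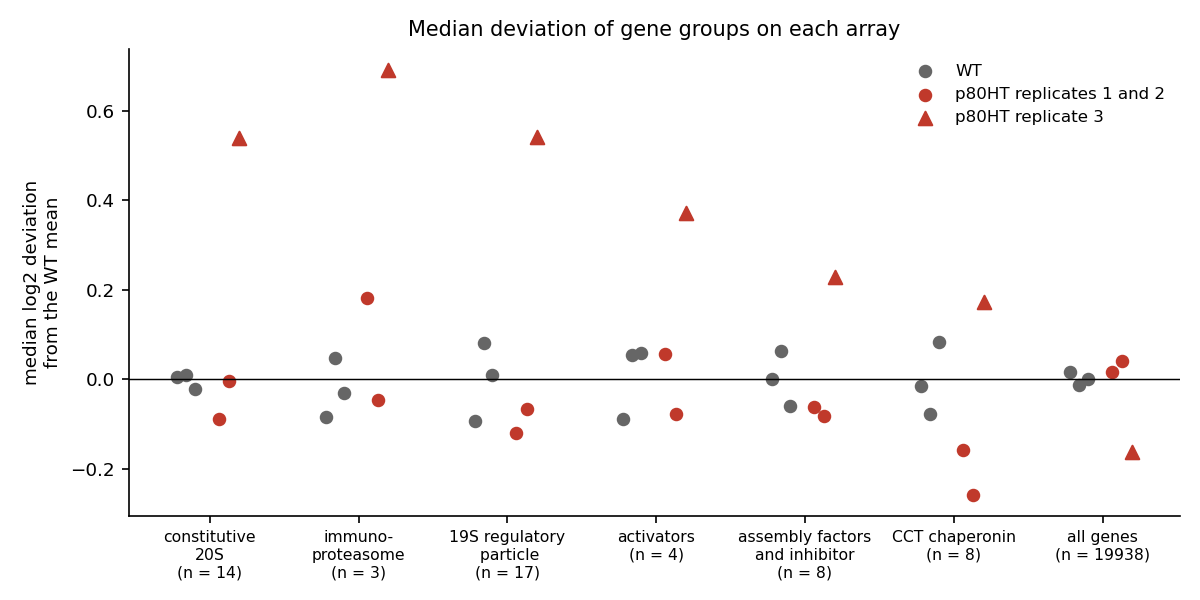
Median deviation from the WT mean (vertical axis, log2) of the proteasome gene groups, of the CCT chaperonin genes and of all genes, 1 point per array. The p80HT replicate 3 array (triangles) is above every other array for each of the 5 proteasome groups drawn, at 0.69 for the immunoproteasome genes, and below them for all genes, at -0.16.

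Genes that work with the proteasome under other names gave 1 call. Among 10 proteasome-associated genes, whose median difference was -0.02, 1 fell, none rose and the other 9 met neither call. The share of all genes that fell was 0.968%. When p80HT replicate 3 was left out, all 10 differences were below 0 with a median of -0.24, where 8708 of all 19938 genes were below 0. Zfand5, which activates the proteasome when protein is broken down in excess, was at 10.25, 10.61 and 10.70 on WT replicates 1 to 3 and 9.96, 9.88 and 9.92 on p80HT replicates 1 to 3. All p80HT arrays were below all WT arrays and close to each other. It fell by 0.60 on the log2 scale (SE 0.15, adjusted p = 0.284 in limma), and without p80HT replicate 3 the difference was -0.60 (adjusted p = 0.0426). Leaving out WT replicate 2 (-0.55) or 3 (-0.51), or else p80HT replicate 1 (-0.62) or 2 (-0.58), ended this call, as did the ordinary analysis of variance of the methods (unadjusted p = 0.0126) and quantile normalization (-0.53). Pomp, which helps the barrel to close during assembly, was at 9.99, 10.04 and 9.89 in WT and 9.97, 9.86 and 10.73 in p80HT and did not pass (0.22, and -0.06 without p80HT replicate 3). Of 3 measured genes that control the transcription of subunits none passed, Nfe2l1, the factor that raises subunit genes when the proteasome is blocked, having a difference of 0.08 and Nfe2l2 of 0.14, or 0.06 and -0.16 without p80HT replicate 3. Of 8 genes of ubiquitin supply and delivery none passed, with a median of -0.14, Uba6, a ubiquitin-activating enzyme, at -0.27 and Ufd1, a cofactor of the unfoldase Vcp, at -0.16, or -0.46 and -0.21 without p80HT replicate 3.

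The 8 genes of the CCT chaperonin, another large complex that every cell needs, were taken as a comparison. None passed, the median was -0.09, and Cct7 (-0.23) and Cct2 (-0.11) had the smallest p. Without p80HT replicate 3 all 8 differences were below 0 with a median of -0.19, where 8708 of all 19938 genes were below 0. On p80HT replicates 1 and 2 these genes lay below the WT mean, at -0.16 and -0.26 in the median, and on replicate 3 above it, at 0.17, where the barrel and the cap stood at 0.54. Whether the groups of genes differ was not tested. Of 9 plasma cell markers 1 rose, where 1.22% of all genes did. It was Prdm1, the factor that starts plasma cell differentiation, at 8.70, 8.72 and 8.62 in WT and 9.48, 9.21 and 9.75 in p80HT, a rise of 0.80 (adjusted p = 0.181 in limma). Xbp1, the factor of the secretory apparatus, was at 10.97, 10.96 and 11.22 in WT and 10.88, 11.34 and 11.91 in p80HT and did not pass (0.33, and 0.06 without p80HT replicate 3). Of the 9 differences 7 were above 0 and 2 below, Jchain at -0.08 and Irf4 at -0.78. Irf4 had all its p80HT values below all its WT values but did not pass, and its difference was -0.21 without p80HT replicate 3.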

How the data were processed

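RNA of B220-selected splenic B cells was measured on 1 array per mouse in 3 p80HT and 3 WT mice, none pooled. The authors normalized the scans by robust multi-array average (RMA) in Partek and deposited 1 log2 value per probeset, with versions not given in the sources used here. RMA scales arrays to each other, so the values are relative, with no reads or depth behind them. Of 28853 probesets, 21789 named 1 gene in the platform annotation, 1621 several and 5443 none. The brightest probeset of each of 19938 genes was used. The p80HT and WT arrays were compared with limma 3.58.1 (R 4.3.3; linear model and empirical Bayes, two-sided, no block), adjusted over all genes by the Benjamini-Hochberg method. The threshold was that of the study's methods, at least 1.5-fold and p under 0.01. Shifts of Psmb9 against Psmb8 and Psmb10, which were not planned beforehand, were tested by exact permutation over arrays. Fully named were the catalytic subunits, the activators, genes past the threshold and, per group, the gene of smallest p and of largest difference. Tap2, Ifng, Irf1, Irf2, Pomp, Xbp1, Irf4, Jchain, Siglech and Ccr9 were named after their values were seen. The members and lists were chosen with earlier results of these data known. Tests were checked on simulated data without an outlying array, so the check does not cover p80HT replicate 3. The number of arrays limits the precision. Alternatives left out each array, set the replicate number as a block, or changed the variance model, array weights, scaling, filter on dim genes, probeset rule or threshold.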

Additional observations from a re-analysis of the deposited data

How the results depend on the processing

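The number of proteasome genes that rose was 1, and 0 to 1 when each array was left out in turn, 0 under the ordinary analysis of variance of the methods (Psmb9 unadjusted p = 0.0169 by this test, limma without its shared variance) and 1 in each of the other alternatives. No proteasome gene fell in any of them. The number with an adjusted p under 0.05 was 0 to 2 when each array was left out and 13 with array weights, which gave p80HT replicate 3 a weight of 0.0687 and called 7155 of all genes; in the other alternatives it was 0. The shift of Psmb10 against Psmb7 was -0.052 with array weights. The log2 difference of Psmb9 was 0.57 to 0.88 when each array was left out. The median difference of the cap genes was -0.11 to 0.20 over all alternatives, that of the constitutive barrel genes -0.03 to 0.28 and that of the immunoproteasome genes 0.07 to 0.41. Centring each array on its median moved the median of all genes to -0.12, the calls over all genes to 183 higher and 342 lower, and the median of the 50 proteasome genes to 0.03, 28 of them above 0.

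Many differences changed sign, none of them past the threshold: 36 of the 50 were above 0 with 6 arrays, 18 with array weights, 37 with quantile normalization and 28 with median centring. Among the proteasome genes named with full values, those that did so with array weights were Psmb10 (-0.047), Psmb6 (-0.021), Psmb7 (0.0057), Psme3 (0.037), Psma8 (-0.0021), Psmb11 (0.26), Psmc3ip (-0.13) and Psmd6 (-0.047). With quantile normalization they were, among the same named genes, Psmb7 (0.089), Psme3 (0.061) and Psmc3ip (-0.054), and with median centring Psmb6 (-0.039) and Psmc3ip (-0.062). With each array left out in turn the range was -0.025 to 0.16 for Psmb6, -0.11 to 0.066 for Psmb7, -0.12 to 0.099 for Psme3, -0.26 to 0.0099 for Psme4, -0.18 to 0.25 for Psmb11, -0.15 to 0.19 for Psmc3ip, -0.0025 to 0.62 for Psma5, -0.025 to 0.43 for Psmd6 and -0.28 to 0.0027 for Psme3ip1. The cause was not tested. The labels do not say whether the replicate numbers pair the mice. Correlations of same-numbered deviations were 0.07, -0.24 and 0.07, and those of differently numbered ones -0.20 to 0.29. Taken across genes on so few arrays, they cannot settle the pairing. With the replicate number as a block Psmb9 stayed past the threshold (0.77, unadjusted p = 0.00525 in limma), Zfand5 did not (nor under ordinary analysis of variance or quantile normalization), and 363 genes of all were higher and 204 lower.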
